A study of Rattus norvegicus with 6 samples.

Results

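The genes for chemokines, interleukins and their receptors were examined in RNA-seq of rat spinal cord. Members were all genes of the deposited table with a symbol that starts with *Ccl*, *Cxcl*, *Ccr*, *Cxcr* or *Il* and a digit, and with at least 1 count in any library. This gave 107 of 22050 genes. The study compared rats with neuropathic pain (NP) after spared nerve injury (SNI), a model in which some branches of the sciatic nerve are cut and the sural branch is left intact, with rats that had a sham operation. There were 3 libraries of each group, all from male Sprague-Dawley rats, and the labels list no other treatment or allele. The labels give neither the time after surgery nor the side or level of the cord, and the age at sampling was not used here. They do not say whether the libraries came from separate animals, so p-values measure the spread between these samples, which may be technical. In bulk tissue, fewer cells of a type and less RNA per cell cannot be told apart.

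Chemokines are small secreted proteins that guide leukocytes along gradients. They fall into CC and CXC families by the spacing of conserved cysteines and act on G-protein-coupled receptors named CCR and CXCR. Interleukins signal mostly through receptors that activate JAK kinases and STAT factors, except that the interleukin-1 family uses MyD88 and NF-κB and the interleukin-17 family also leads to NF-κB. In the dorsal horn, microglia, astrocytes and neurons exchange such signals after nerve injury, and CCL2 and interleukin-1β are known to raise the excitability of pain pathways.

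The libraries held 16670760 to 18151156 estimated counts. A gene at 0 counts could be present at up to 3 counts, which is 0.167 to 0.18 CPM depending on the library (CPM is the count as a rate of the scaled library total). This limit covers counting error only. Markers of microglia, astrocytes, oligodendrocytes and neurons were above 0 in every library. This goes with the label spinal cord but cannot tell it from other nervous tissue. Markers of other cell types and tissues were counted at an unadjusted p under 0.05 by edgeR, which 10.8% of all genes passed (4.91% higher and 5.94% lower). Of the tested markers, 4 of 6 erythroid (66.7%) and 3 of 6 B cell and precursor markers (50.0%) were higher after SNI. In the other lists with calls, 1 of 8 neutrophil and precursor markers, 1 of 5 skeletal muscle markers and 1 of 4 meningeal and fibroblast markers were higher, and 2 of 7 neuron markers and 1 of 6 astrocyte markers were lower. None of 10 microglia markers, 5 T cell markers or 4 perivascular macrophage markers was called by that edgeR test in either direction. The summed erythroid markers were at 968.6 to 2364.4 CPM in sham libraries and 2120.1 to 5100.8 CPM in SNI-NP libraries.

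Most members were scarce. Mean FPKM, a level per transcript length, was above 10 in 12 members, from 1 to 10 in 35 and under 1 in 60. In 19 members no library had more than 3 counts. Another 20 genes with a matching symbol had 0 counts throughout, among them *Il4*, *Il13* and *Il17a*, which helper T cells secrete. Counts that were not whole numbers occurred in 5 members (*Ccl24*, *Il21r*, *Il27ra*, *Il13ra1* and *Ccl9*), and their levels are uncertain if reads were shared out between genes. *Ccr2*, the receptor of CCL2, was not analysed here.

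The highest level per length was that of *Il33*, a nuclear alarmin of the interleukin-1 family that glia express. It was 79.5 ± 19.0 FPKM in the sham group and 76.3 ± 8.07 FPKM after SNI (SD, n = 3 each). *Il6st*, the signalling chain shared by receptors of the interleukin-6 family, followed at 47.9 ± 6.49 and 47.2 ± 4.01 FPKM. Next came *Il11ra1*, the interleukin-11 receptor chain, at a mean of 32.3 FPKM over the 6 libraries, and *Il34*, a ligand of the microglial receptor CSF1R, at 31.9 FPKM, and this pair differed by less than the spread between libraries. *Cxcl16*, a membrane-bound chemokine, was at 25.0 FPKM and *Cxcl10* at 22.5 FPKM. The other members among the 10 highest were *Ccl6* at 18.5, *Il16* at 15.4, *Cxcl12* at 14.4 and *Il17d* at 11.6 FPKM.

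Levels also differed by role. The median of the mean FPKM was 6.84 for 12 CXC chemokines and 1.63 for 18 CC chemokines. It was 1.12 for 34 interleukin receptors and chains, 0.335 for 21 interleukins and 0.312 for 14 chemokine receptors. Receptor chains for interleukins were thus measured at higher levels per length than most of the interleukins themselves.

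**Figure D1:**
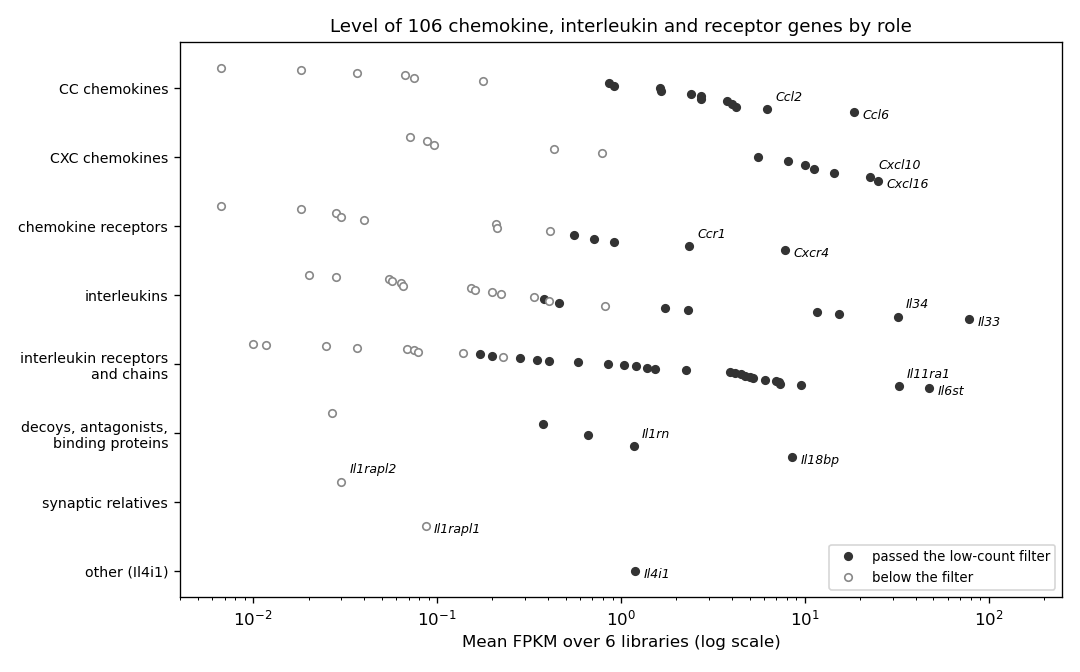
Mean FPKM over the 6 libraries (x axis, log scale) for 106 members by role (y axis). Filled points passed the low-count filter and open points did not, and the rightmost point is *Il33* at 77.9 FPKM.

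Spared nerve injury was accompanied by few differences in these genes. After the filter on low counts, 63 of the 107 members were tested in a fit over 14426 genes by the quasi-likelihood test of edgeR. After adjustment for all genes tested (Benjamini-Hochberg), 0 members passed 0.05 by edgeR, as did 0.0% of all genes. DESeq2 also gave 0 members, but its share of all genes was not computed. *Lifr*, which is not a member, did pass by DESeq2 (adjusted p = 0.0488). At an unadjusted edgeR p under 0.05, 1 member was higher (*Cxcr4*) and 1 was lower (*Il18*), together 3.17% of the tested members against 10.8% of all genes tested (4.91% higher and 5.94% lower). DESeq2 called 1 member at that level, *Il18*, again without a share of all genes to set beside it. The share of members called by edgeR was thus under the background, but the members were also scarcer. The median of the mean FPKM was 0.712 over all 107 members and 7.98 over all genes tested. The part of this in the share called was not tested. The p-values above come from the fit across all genes, since an exact two-sided permutation test of 3 libraries against 3 cannot go below 0.10.

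The libraries of the groups did not overlap in 8 of the 63 members (12.7%, against 18.5% of all genes). SNI-NP lay above sham in 6 of them (9.52%, against 10.4%) and below in 2 (3.17%, against 8.15%). Of these, *Cxcr2*, *Il9r* and *Il15ra* passed the filter only through the group with the higher counts, so their separation is no support for a difference. The log2 fold change was above 0 in 39 members (61.9%, against 50.9% of all genes), with a median of 0.12 over the members and 0.01 over all genes. It was beyond 1 in either direction in 1 member, *Cxcr2* (1.59%, against 3.81%).

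The intervals show what could have gone unseen. The 95% interval of the log2 fold change included 0 in 61 of the 63 members. It reached a median of 0.80 to either side, from 0.24 for the best measured member to 3.53 for the worst. In 25 members the interval lay within 1 on the log2 scale in both directions, so for the others a doubling or a fall of that size was not excluded by the interval.

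**Figure D2:**
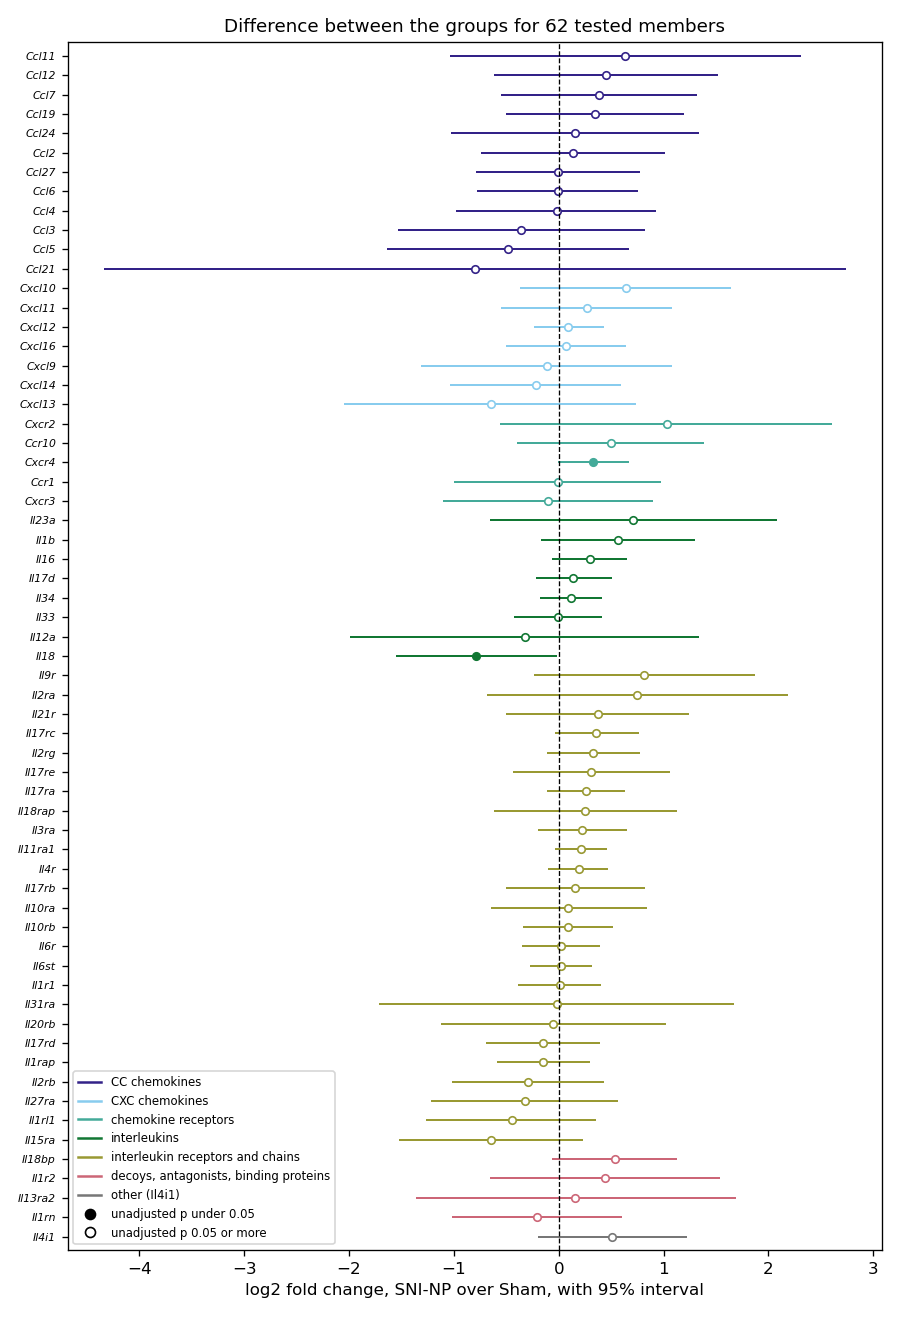
Log2 fold change of SNI-NP over sham (x axis) with its 95% interval for 62 tested members (y axis), coloured by role. The 2 filled points have an unadjusted edgeR p under 0.05, *Il18* at -0.79 and *Cxcr4* at 0.33, and all other intervals cross 0.

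*Il18* was the member that was lower after SNI. It encodes a cytokine of the interleukin-1 family that is matured by caspase-1 and drives interferon-γ. Sham libraries had 35, 69 and 49 counts and SNI-NP libraries had 33, 33 and 24. The scaled levels did not overlap, but the lowest sham library at 2.1 CPM and the highest SNI-NP library at 1.9 CPM were close. Mean levels were 2.95 ± 0.897 and 1.71 ± 0.276 CPM (SD, n = 3 each). The log2 fold change was -0.79 (SE 0.32, 95% interval -1.54 to -0.03, edgeR unadjusted p = 0.0434, adjusted p = 0.446). The call was lost when any 1 library other than sham replicate 1 was left out. The value was -0.53 (edgeR unadjusted p = 0.154) without sham replicate 2, and the p ranged from 0.0229 to 0.154 over all alternatives.

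*Il18bp* encodes the secreted protein that binds and neutralises interleukin-18. Its counts were 79, 137 and 122 in the sham group against 127, 195 and 177 after SNI. SNI-NP replicate 1 fell inside the sham range and the other SNI-NP libraries lay above it. This gave a log2 fold change of 0.54 (SE 0.25, 95% interval -0.05 to 1.12, edgeR unadjusted p = 0.0675, adjusted p = 0.478). *Il18r1*, the ligand-binding receptor chain, had 12 counts in all sham libraries together and 4 in all SNI-NP libraries, too few to test. *Casp1*, which encodes caspase-1 and is not a member, had 74, 115 and 70 counts against 52, 64 and 67 (log2 fold change -0.52, SE 0.26, edgeR unadjusted p = 0.0781). Its groups did not overlap after scaling, as in 18.5% of all genes tested. Without sham replicate 2 its log2 fold change was -0.29 (edgeR unadjusted p = 0.287).

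*Il1b* encodes interleukin-1β, which the study also assayed as protein in spinal cord. Sham libraries had 40, 33 and 27 counts, and SNI-NP libraries had 37, 63 and 52. The groups overlapped, since SNI-NP replicate 1 at 2.13 CPM was below sham replicate 1 at 2.4 CPM. The log2 fold change was 0.57 (SE 0.31, 95% interval -0.16 to 1.29, edgeR unadjusted p = 0.108, adjusted p = 0.521), which as a ratio runs from 0.896 to 2.45. Without SNI-NP replicate 1 it was 0.74 (edgeR unadjusted p = 0.049).

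Other genes of the interleukin-1 system were not called. *Il1a*, which encodes the other agonist, had at most 2 counts in any library. The signalling receptor *Il1r1* had a log2 fold change of 0.01 (SE 0.16), and its accessory chain *Il1rap* was at -0.15 (SE 0.19). The receptor antagonist *Il1rn* was at -0.21 (SE 0.34) and the decoy receptor *Il1r2* at 0.44 (SE 0.47). These inhibitors were low, with mean levels of 1.17 and 0.662 FPKM. *Il33* was at 0.994 of its sham level, with an interval from 0.748 to 1.32, and its receptor *Il1rl1* had a log2 fold change of -0.45 (SE 0.34).

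*Il6* was at the limit of detection. The sham libraries held 2, 3 and 2 counts and the SNI-NP libraries 1, 6 and 3. Its mean of 0.153 FPKM over the 6 libraries was below the 0.168 FPKM that 3 counts of this gene amount to. A small difference was thus not detectable at this depth, and no fold change is given. No library had more than 6 counts. The receptor side was well covered. *Il6r*, the ligand-binding chain, had a log2 fold change of 0.02 (SE 0.15, 95% interval -0.34 to 0.38), and *Il6st* had 0.02 (SE 0.12, 95% interval -0.26 to 0.31). *Tnf*, which is not a member but encodes another cytokine assayed as protein, had 0 counts in all libraries.

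Anti-inflammatory interleukins were as scarce. *Il10* had 1 count in 1 library of each group, and *Il4* had none. Their receptors were expressed. *Il10ra* and *Il10rb*, the chains of the interleukin-10 receptor, both had a log2 fold change of 0.09 (SE 0.31 and SE 0.18). *Il4r*, the interleukin-4 receptor chain, was at 24.0 ± 1.96 CPM in the sham group and 27.3 ± 1.68 CPM after SNI (SD, n = 3 each), with a log2 fold change of 0.19 (SE 0.12).

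None of the 25 tested interleukin receptor genes passed an unadjusted p of 0.05 by edgeR or DESeq2, and in 5 the groups did not overlap (20%, close to the 18.5% of all genes). *Il11ra1* had 795, 906 and 950 counts in sham libraries against 1002, 1135 and 987 after SNI (log2 fold change 0.21, SE 0.10, edgeR unadjusted p = 0.0789). *Il9r*, the interleukin-9 receptor, had 12, 7 and 7 counts against 20, 13 and 14 (log2 fold change 0.81, SE 0.45). In both, each SNI-NP library was above each sham library after scaling, but *Il9r* passed the filter only through its SNI-NP libraries. The other 3 were chosen after their values were seen. *Il17rc*, a chain of the interleukin-17 receptor, had 143, 215 and 179 counts against 227, 231 and 245 (log2 fold change 0.36, SE 0.17, edgeR unadjusted p = 0.0662). *Il2rg*, the common γ chain, had 78, 104 and 106 counts against 126, 129 and 115 (log2 fold change 0.33, SE 0.19). *Il15ra*, which presents interleukin-15, was the receptor with all SNI-NP libraries on the low side, at 19, 18 and 17 counts against 13, 9 and 13 (log2 fold change -0.65, SE 0.37). It passed the filter only through its sham libraries.

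Receptors with overlapping groups included *Il17ra*, the chain shared by interleukin-17 receptors, at 33.4 ± 5.82 CPM and 40.0 ± 3.62 CPM (SD, n = 3 each), with a log2 fold change of 0.26 (SE 0.15). *Il2ra*, the inducible chain of the interleukin-2 receptor, had one of the widest intervals, from -0.67 to 2.18 around a log2 fold change of 0.75. It had between 3 and 20 counts per library.

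*Cxcr4*, the receptor of CXCL12, was the member that was higher after SNI. Sham libraries had 213, 194 and 217 counts and SNI-NP libraries had 242, 284 and 276. The lowest SNI-NP library, at 13.9 CPM, lay above the highest sham library, at 12.8 CPM. Mean levels were 12.1 ± 1.03 and 15.2 ± 1.14 CPM (SD, n = 3 each), a log2 fold change of 0.33 (SE 0.14, edgeR unadjusted p = 0.0492, adjusted p = 0.458). The call sat on the threshold. The unadjusted value was 0.0678 by DESeq2 and 0.0542 by edgeR with RLE size factors, and it ranged from 0.0394 to 0.18 over all alternatives. It held when SNI-NP replicate 1 was left out and was lost when any other library was.

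The ligand of this receptor differed less. *Cxcl12* was at 75.6 ± 13.8 CPM in the sham group and 80.7 ± 3.72 CPM after SNI (SD, n = 3 each), a log2 fold change of 0.09 (SE 0.14, 95% interval -0.23 to 0.42). *Ackr3*, a scavenger receptor of CXCL12 that is not a member, had 359, 532 and 576 counts against 787, 665 and 642, with no overlap (log2 fold change 0.49, SE 0.18, edgeR unadjusted p = 0.0295, adjusted p = 0.436).

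*Cxcr2*, through which neutrophils follow CXC chemokines, had 1, 10 and 14 counts in sham libraries and 16, 18 and 18 after SNI. It passed the filter only through its SNI-NP libraries. All SNI-NP libraries were higher, but the single count of sham replicate 1 left the interval wide. The fit gave a log2 fold change of 1.03 (SE 0.67, 95% interval -0.55 to 2.60, edgeR adjusted p = 0.579), and 0.50 without that library. The summed level of 8 neutrophil and precursor markers, none of them at 0 in any library, ran from 42.5 to 141.3 CPM in the sham group, lowest in the same library, and from 106.7 to 209.5 CPM after SNI. Their part in the level of *Cxcr2* was not tested. *Cxcl1*, a ligand of this receptor, had 44 counts in sham replicate 2 and 5 to 8 in each other library, and did not pass the filter.

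Other chemokine receptors were not called. *Ccr1*, a receptor of several CC chemokines, had 61, 125 and 39 counts against 82, 58 and 86, so the SNI-NP libraries lay inside the sham range, with a log2 fold change of -0.01 (SE 0.42). *Cxcr3*, found mainly on T cells, was at -0.10 (SE 0.42). *Ccr7* and *Cxcr5*, receptors that lead lymphocytes into lymphoid tissue, were below the filter with at most 11 and 23 counts in a library.

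*Cxcl9*, *Cxcl10* and *Cxcl11* encode the ligands of CXCR3, are induced by interferons and are neighbours in the RefSeq assembly. Their promoters are shown because sham replicate 1 was the lowest of the 6 libraries in all 3 genes. Each is the 250 bases before the annotated start (RefSeq, build GRCr8, plus strand), written 5′ to 3′, with matches to the searched motifs in capitals.
Cxcl9 (chr14:16006916-16007165): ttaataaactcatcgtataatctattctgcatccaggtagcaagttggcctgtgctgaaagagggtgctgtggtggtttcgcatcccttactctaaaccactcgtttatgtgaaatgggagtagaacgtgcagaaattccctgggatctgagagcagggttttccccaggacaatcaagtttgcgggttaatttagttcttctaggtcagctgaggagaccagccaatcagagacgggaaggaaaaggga
Cxcl10 (chr14:15988816-15989065): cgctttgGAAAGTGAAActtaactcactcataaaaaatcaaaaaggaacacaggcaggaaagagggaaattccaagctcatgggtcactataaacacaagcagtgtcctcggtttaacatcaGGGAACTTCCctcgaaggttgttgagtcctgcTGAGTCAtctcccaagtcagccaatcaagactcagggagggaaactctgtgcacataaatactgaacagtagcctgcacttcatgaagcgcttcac
Cxcl11 (chr14:15973478-15973727): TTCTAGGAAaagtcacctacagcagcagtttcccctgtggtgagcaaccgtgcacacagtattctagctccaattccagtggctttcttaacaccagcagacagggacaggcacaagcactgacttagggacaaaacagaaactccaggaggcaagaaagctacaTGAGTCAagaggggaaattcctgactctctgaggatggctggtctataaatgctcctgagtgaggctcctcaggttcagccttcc

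Both strands were searched for the NF-κB consensus, the interferon-stimulated response element (ISRE, GAAA and GAAA with NN between them), the γ-activated sequence (GAS, TTCNNNGAA) and the AP-1 site (TGANTCA). The *Cxcl10* promoter held, in order, an ISRE match from 243 to 234, an NF-κB match from 128 to 119 and an AP-1 match from 96 to 90 bases before the start. The *Cxcl11* promoter held a GAS and an AP-1 match, and no match to the searched motifs was found in the *Cxcl9* window. The NF-κB form searched was a strict one. The run gggaaattcc in the *Cxcl10* and *Cxcl11* windows did not match it, so other forms of the site may have been missed. A match is a run of letters and not a measured site.

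Promoters were found for 81 members. The NF-κB consensus was in 13 of them (16.0%), against 4.24% of 33469 promoters of the same length, and *Il6*, *Cxcl1* and *Cxcl10* were among those with a match. An AP-1 match was in 13.6% against 6.34%, an ISRE match in 7.41% against 3.41% and a GAS match in 9.88% against 7.67%. Members were counted with a single promoter per symbol and the background with every promoter entry, so the shares are not strictly alike.

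The CXCR3 ligands varied widely within each group. *Cxcl10* had 153, 415 and 469 counts in sham libraries and 322, 711 and 607 after SNI. Replicate 1 was the lowest in each group, and that of SNI-NP lay inside the sham range. Its log2 fold change was 0.64 (SE 0.42, 95% interval -0.36 to 1.63, edgeR adjusted p = 0.584). *Cxcl9* had 109, 542 and 257 counts against 232, 230 and 381, and *Cxcl11* had 86, 155 and 168 against 162, 108 and 228. The log2 fold changes of these neighbours, both chosen after their values were seen, were -0.11 (SE 0.51) and 0.27 (SE 0.34).

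*Cxcl13*, which attracts B cells through CXCR5, had 136, 355 and 90 counts in sham libraries against 50, 139 and 184. Sham replicate 2 was the highest. Its log2 fold change was -0.65 (SE 0.59), and 0.09 without that library. *Ccl21*, a ligand of CCR7, was the least certain member. It had 0, 31 and 188 counts against 1, 110 and 19, so each group held a library at or near 0 and a library above 100. Its log2 fold change of -0.80 had an SE of 1.51 and a 95% interval from -4.33 to 2.73.

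**Figure D3:**
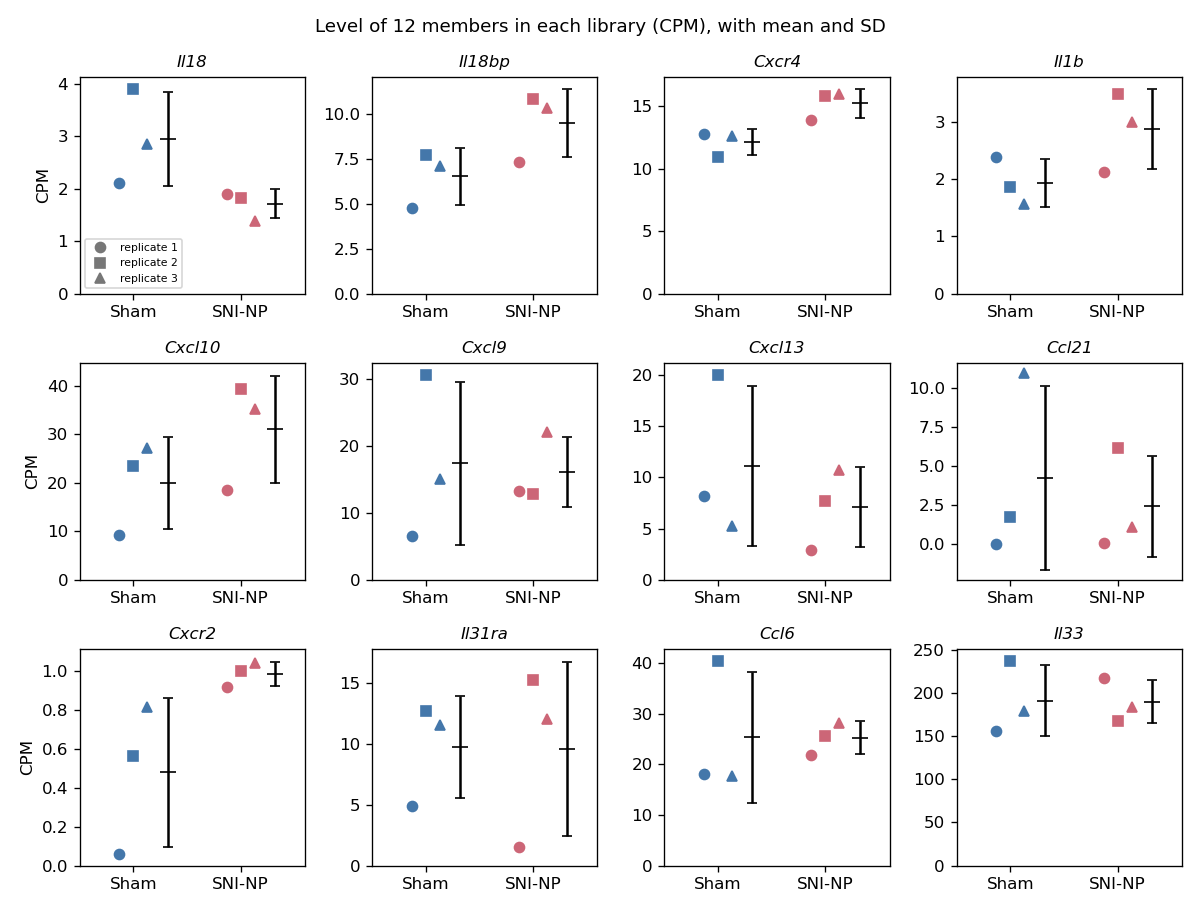
CPM (y axis, 1 scale per panel) of 12 members in sham (blue) and SNI-NP (red) libraries, with a symbol for each replicate number and the mean with its SD at the side. The groups are separate for *Il18*, *Cxcr4* and *Cxcr2*, and sham replicate 2 is the highest point for *Il18*, *Cxcl9*, *Cxcl13*, *Ccl6* and *Il33*.

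The tested CC chemokines, 12 in number, had 0 calls at an unadjusted p of 0.05 by edgeR or DESeq2. *Ccl2*, which recruits monocytes, had 71, 122 and 64 counts in sham libraries against 56, 136 and 96 (log2 fold change 0.14, SE 0.37). *Ccl3* and *Ccl4*, which activated microglia make, were at -0.36 (SE 0.50) and -0.02 (SE 0.40), and *Ccl5*, which T cells make, at -0.48 (SE 0.49). *Ccl6*, the CC chemokine with the highest level per length, had 303, 717 and 304 counts against 379, 463 and 488. Sham replicate 2 was above all SNI-NP libraries and the other sham libraries were below all of them.

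Several of these values depended on sham replicate 2. It was the highest library in 16 of the 63 members (25.4%, against 18.0% of all genes), and sham replicate 1 was the lowest in 22 (34.9%, against 17.6%). Without sham replicate 2, edgeR gave 8 of 65 members higher at an unadjusted p under 0.05 (12.3%, against 6.30% of all genes in that fit) and 0 lower (against 8.32%), and DESeq2 was not run on that subset. Leaving out a sham library that is often the highest raises SNI-NP over sham in such members by construction. These counts are thus no separate support for an increase. Without sham replicate 1, edgeR gave 0 members higher and 1 lower, and the share of all genes in that fit was not computed. The 8 higher without sham replicate 2 were *Ccl6*, *Ccl7*, *Ccl12*, *Il16*, *Il17rc*, *Il17re*, *Il18bp* and *Il24*. *Il24* had 1, 8 and 0 counts in sham libraries against 6, 14 and 12, and did not pass the filter in the full fit. It entered this fit only through its SNI-NP counts, so its call is no support for a difference. The log2 fold change of *Ccl6* went from -0.01 to 0.50 without sham replicate 2. *Ccl7* and *Ccl12*, monocyte chemokines next to *Ccl2* in the RefSeq assembly and chosen after their values were seen, went from 0.38 to 0.88 and from 0.45 to 1.12.

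The median over the tested members went from 0.12 to 0.30 without sham replicate 2, and that of all genes from 0.01 to 0.00. The median without sham replicate 1 was not computed. The summed perivascular macrophage markers, none at 0, were at 105.9 CPM in sham replicate 2 and at 45.8 to 75.8 CPM in the other 5 libraries. The summed microglia markers were also highest there, at 670.5 CPM against 453.0 to 598.0 CPM, and lowest in sham replicate 1. The part of either list in these values was not tested. Without SNI-NP replicate 1, edgeR gave 3 of 66 members higher (4.55%, against 3.56% of all genes), which were *Cxcr4*, *Il18bp* and *Il1b*, and 0 lower (against 9.52%).

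**Figure D4:**
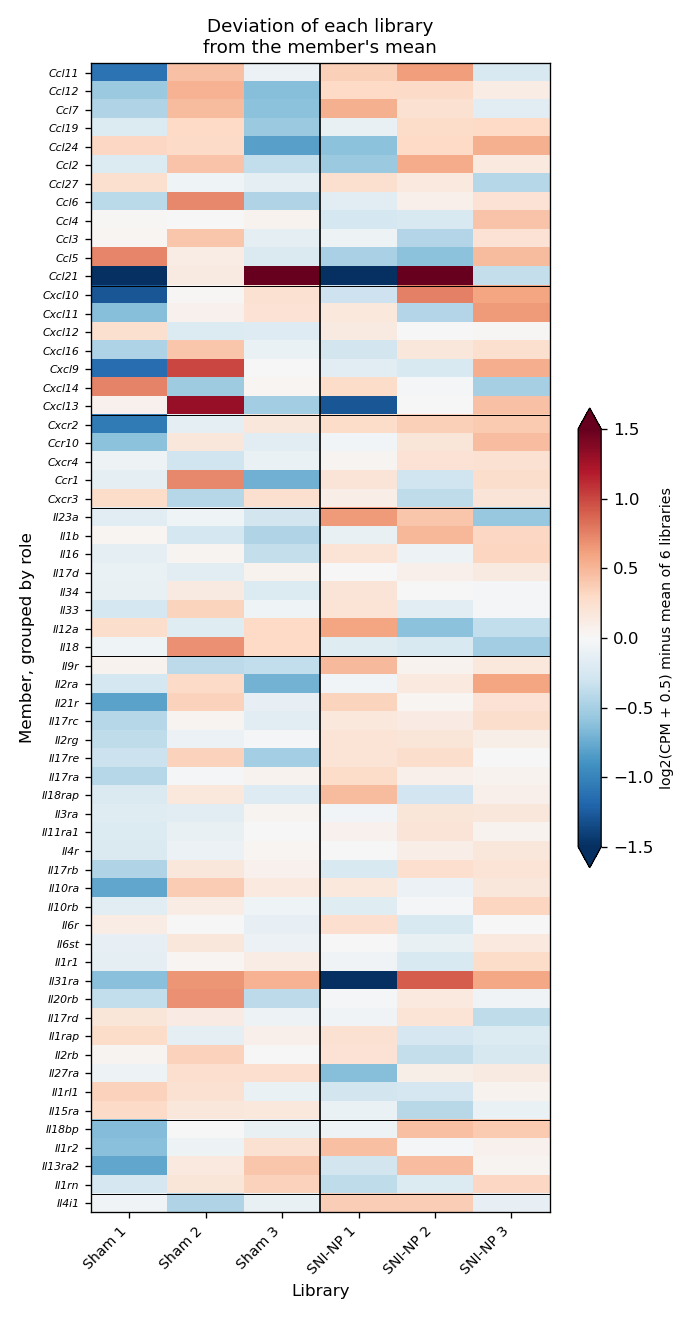
Log2(CPM + 0.5) of each library (x axis) minus the mean of the 6 libraries, for 62 tested members grouped by role (y axis), with the colour scale ending at 1.5 in each direction. Sham replicate 1 is blue for *Cxcl9* to *Cxcl11*, *Ccl11* and *Cxcr2*, sham replicate 2 is red for most CC chemokines, and SNI-NP replicate 1 is dark blue for *Il31ra*.

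*Il31ra*, chosen after its values were seen, encodes the receptor for interleukin-31, an itch cytokine, on sensory neurons. Its counts were 82, 226 and 197 in sham libraries and 26, 274 and 207 after SNI (log2 fold change -0.02, SE 0.72). Replicate 1 was the lowest in each group. The summed level of 8 dorsal root ganglion neuron markers, none at 0 and none called, was 83.0 CPM in SNI-NP replicate 1, 423.0 CPM in sham replicate 1 and 791.8 to 1158.4 CPM in the other 4 libraries. Their part in the level of *Il31ra* was not tested.

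The other 44 members did not pass the filter. Counts occurred in sham libraries only in 6 of them and in SNI-NP libraries only in 2, and each of these 8 had at most 3 counts in all. The highest were *Ccl20* and *Ccr8* with 3 counts, and *Il12b*, *Il23r* and *Ccl17* with 2. *Cxcl6*, a neutrophil chemokine chosen after its values were seen, had 7, 5 and 3 counts in sham libraries and 1, 0 and 0 after SNI.

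Of 52 listed other genes of these pathways, 44 were tested, and 3 were higher and 1 was lower at an unadjusted edgeR p under 0.05 (9.09%, against 10.8% of all genes). None passed the adjusted threshold by edgeR, and 1, *Lifr*, did by DESeq2. Beside *Ackr3*, the higher genes were *Csf1*, which encodes a growth factor of microglia (log2 fold change 0.25, SE 0.10), and *Rela*, which encodes a subunit of NF-κB (0.30, SE 0.10). *Lifr*, which pairs with the *Il6st* chain in the receptor of leukemia inhibitory factor, had 1323, 1697 and 1451 counts in sham libraries against 953, 1009 and 1184. The groups did not overlap, and the log2 fold change was -0.53 (SE 0.13, edgeR unadjusted p = 0.00374, adjusted p = 0.336; DESeq2 adjusted p = 0.0488). Of the other inflammasome genes, *Nlrp3* was at -0.36 (SE 0.28) and *Pycard* at 0.23 (SE 0.37).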

How the data were processed

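Total RNA of rat spinal cord was sequenced in 3 sham and 3 SNI-NP libraries. The authors mapped reads to the genome they call Rat6 and kept unique ones, and deposited a table of estimated counts and of FPKM per gene. The submitters' processing notes name FastQC, STAR and HTSeq. Annotation release and use of strand were not given in the sources used here. The estimated counts were rounded, filtered with filterByExpr, scaled by TMM and fitted in R (version 4.3.3) with edgeR (version 4.0.16, quasi-likelihood test), with group as the only term and Benjamini-Hochberg adjustment over 14426 genes. The SE is the size of the log2 fold change divided by the root of F. The 95% intervals use the t distribution of the same fit. Alternatives were DESeq2 (version 1.42.0), which the study's methods name, RLE size factors, no filter, at least 10 counts in every library, the replicate number as a block and leaving out each library in turn. Depth ranged from 16670760 to 18151156 counts.

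The members and gene lists were chosen with earlier results of these data known. Genes were named by a rule: interleukin-1 and interleukin-6 genes, textbook genes of spinal pain, the 10 members with the highest FPKM, members past the unadjusted threshold, the 5 with the largest fold changes, and up to 5 with counts in 1 group. RefSeq promoters (GRCr8) are of another build than the counts. A few genes are not reported here by name and enter only the counts over members or genes.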

Additional observations from a re-analysis of the deposited data

How the results depend on the processing

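No member passed the adjusted threshold under any alternative run. Of the other pathway genes, *Lifr* passed it by DESeq2 (adjusted p = 0.0488) and not by edgeR (0.336). The count of members higher at an unadjusted p under 0.05, 1 as reported, was 0 with DESeq2, with RLE size factors, without a filter and with at least 10 counts in every library, and from 0 to 8 when 1 library was left out. The count lower, 1 as reported, was 2 without a filter (*Cxcl6* beside *Il18*) and from 0 to 1 when 1 library was left out. Called genes of the other pathway list, 4 as reported, ranged from 1 without SNI-NP replicate 3 to 8 without sham replicate 2 (2 without sham replicate 1 or SNI-NP replicate 1). The cause was not tested.

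Same replicate numbers do not pair the libraries, since deviations correlated at 0.214, -0.143 and 0.0538. With the replicate number as a block, 2 members were higher (*Cxcl10*, 0.70, and *Il18bp*, 0.55), 0 were lower and 2 other pathway genes were called. *Ccl6* (0.09) and *Ccr1* (0.11) changed sign.

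Of 36 named members tested, 22 kept their sign throughout. Leaving out 1 library turned the log2 fold change of *Ccl2* (-0.17 to 0.45), *Ccl4* (-0.46 to 0.15), *Ccl6* (-0.25 to 0.50), *Ccl21* (-2.85 to 1.43), *Ccr1* (-0.35 to 0.54), *Cxcl13* (-1.11 to 0.09), *Cxcl16* (-0.14 to 0.34), *Cxcr3* (-0.37 to 0.11), *Il1r1* (-0.18 to 0.12), *Il6r* (-0.11 to 0.13), *Il6st* (-0.08 to 0.12), *Il10ra* (-0.21 to 0.36), *Il10rb* (-0.11 to 0.20) and *Il33* (-0.16 to 0.18). All of these were uncalled in the full fit. Counts of 3 or fewer limit 19 members to a statement of detection.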
